A study of Homo sapiens with 8 samples.

Results

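The subunits of ligand-gated neurotransmitter receptors were examined as 1 gene module in MP38, a BAP1-mutant human uveal melanoma cell line. Members were chosen by symbol alone, as the genes for ionotropic receptor subunits of GABA (GABR), glutamate (GRIA, GRIK, GRID and GRIN), acetylcholine (CHRN), glycine (GLR) and ATP (P2RX). The rule found 65 of the 35238 genes in the table: 19 for GABA, 18 for glutamate, 16 for acetylcholine, 5 for glycine and 7 for ATP. The experiment was bulk RNA sequencing of MP38 after 24 h in 4 groups of 2 libraries: a control with DMSO only, romidepsin at 40 nM, quisinostat at 40 nM, and mivebresib at 1200 nM, with 0.1% DMSO in every group, control included. Romidepsin and quisinostat inhibit histone deacetylases (HDACs), the enzymes that remove acetyl groups from histones, whereas mivebresib is a BET inhibitor, a compound that occupies the bromodomains with which BET proteins read acetylated histones. The 2 libraries of a group came from separate wells of 1 cell line, so every p-value below measures the spread between wells and not between cell lines. These RNAs come from the whole well, so fewer cells with a transcript and less of it per cell cannot be told apart.

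Ligand-gated receptors are ion channels that open when a transmitter binds. Receptors of GABA, acetylcholine and glycine are pentamers of subunits, those of glutamate tetramers and those of ATP trimers, and the mixture of subunits sets the transmitter affinity, the ions that pass and where the channel sits. They are best known for fast signalling between neurons and at the neuromuscular junction. Several are also made outside the nervous system, P2RX4 and P2RX7 in immune cells among them, and melanocytes derive from the neural crest, as many peripheral neurons do.

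To show promoters of members that responded in different ways, the 250 bases upstream of a RefSeq transcription start were read for 4 members from the RefSeq promoter table (GRCh38.p14). GABRQ was chosen as a gene that rose with quisinostat and mivebresib, GRIK3 as one that rose from near 0 with quisinostat, GRIN2B as one that fell with mivebresib, and CHRNB1 as one that was called with none of the 3 drugs. None of the 4 windows held an exon base of its gene in GENCODE 29. Each is written 5′ to 3′ on the gene's strand, with capitals for GC boxes (GGGCGG on either strand), the motif of the SP and KLF zinc-finger factors.
GABRQ (chrX:152637645-152637894, plus strand): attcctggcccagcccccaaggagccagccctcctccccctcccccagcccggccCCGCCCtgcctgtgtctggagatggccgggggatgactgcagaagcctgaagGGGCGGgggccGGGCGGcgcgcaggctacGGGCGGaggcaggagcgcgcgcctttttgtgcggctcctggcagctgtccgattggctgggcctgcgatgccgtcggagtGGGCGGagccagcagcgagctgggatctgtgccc
GRIK3 (chr1:37034516-37034765, minus strand): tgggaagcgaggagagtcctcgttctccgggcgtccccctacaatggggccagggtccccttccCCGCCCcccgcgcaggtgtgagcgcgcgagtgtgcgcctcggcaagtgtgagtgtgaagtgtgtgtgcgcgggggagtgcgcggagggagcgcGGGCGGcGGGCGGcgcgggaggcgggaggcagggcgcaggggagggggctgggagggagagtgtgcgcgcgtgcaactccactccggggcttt
GRIN2B (chr12:13982135-13982384, minus strand): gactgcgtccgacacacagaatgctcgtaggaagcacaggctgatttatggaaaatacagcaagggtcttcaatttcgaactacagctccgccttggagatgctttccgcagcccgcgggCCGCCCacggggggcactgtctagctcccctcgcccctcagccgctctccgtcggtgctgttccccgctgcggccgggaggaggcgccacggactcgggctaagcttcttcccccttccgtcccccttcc
CHRNB1 (chr17:7444811-7445060, plus strand): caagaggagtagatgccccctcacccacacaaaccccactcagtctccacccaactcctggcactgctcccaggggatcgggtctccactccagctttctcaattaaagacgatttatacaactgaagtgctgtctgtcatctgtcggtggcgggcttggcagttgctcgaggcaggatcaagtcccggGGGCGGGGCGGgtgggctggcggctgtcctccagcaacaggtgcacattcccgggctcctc
The windows held 20 CpG dinucleotides in GABRQ, 29 in GRIK3, 21 in GRIN2B and 10 in CHRNB1. The promoter table matched 42 of the 65 members. Over the first start of each gene, a GC box lay in the window of 24 of those 42 (57.1%), against 42.3% of all 27305 promoters and 66.7% of the 10921 promoters of tested genes. Of the 15 members called up with quisinostat, 9 had a window, and a GC box lay in 8 of these (88.9%). It lay in 9 of the 13 windows of other tested members (69.2%), and in 61.7% of the 1152 windows of all genes called up with quisinostat. With mivebresib it lay in 3 of 3 windows of members called up and in 2 of 2 of members called down. The TATA box (TATAAA, either strand) lay in 2 member windows (4.76%), against 5.45% of tested genes and 11.1% of all, and the M-box (TCATGTG, either strand), the motif of the melanocyte factor MITF, in 0 member windows against 1.45% of tested genes and 2.58% of all. Median CpG number was 26 in the 9 windows of members called up with quisinostat, 14 in the 13 of other tested members and 6 in the 20 of members too low to test, with 18 over all genes called up with quisinostat, 21 over all tested genes and 11 over all promoters. These are descriptions of short windows, and no match there says only that the letters are absent.

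Total counts ran from 28483235 to 29359024 per library, so depth differed little. The 2 control libraries differed most from each other: the chi-square of their counts per degree of freedom was 58.1, against 9.52 to 9.79 within the drug groups. Members detected with at least 1 read numbered 46 to 57 per library. As a check of the cell line, the 7 melanocytic markers summed to between 3561 and 5450 CPM (reads of a gene relative to the scaled library size, with trimmed mean of M-values factors) in every library, with TYRP1 and PMEL leading and DCT too low to test. SOX10 was the 1 melanocytic marker called, down with mivebresib (-1.93 ± 0.10 on the log2 scale, SE), where 4.36% of all tested genes were called down. By the adjusted p alone, 1, 3 and 4 of the 6 tested were lower with romidepsin, quisinostat and mivebresib. Of all tested genes, 15.8%, 25.1% and 24.1% were lower in the same order of drugs. The log2 fold change of MITF was -1.39 ± 0.08 with quisinostat and -1.47 ± 0.08 with mivebresib, and that of MLANA was -1.05 ± 0.09 and -1.33 ± 0.10. Blood cell markers summed to at most 0.665 CPM, and the 6 fibroblast markers to between 8.19 and 35.4 CPM, with COL1A1 called up with both HDAC inhibitors. Neuronal markers summed to 77.6 to 81.6 CPM in control, 50.0 to 51.9 with romidepsin, 106 to 118 with quisinostat and 350 to 389 with mivebresib, mostly from TUBB3. With the 3 drugs in that order, 3, 5 and 2 of the 6 were called up, against 3.77%, 11.2% and 3.96% of all tested genes. By the adjusted p alone, 4, 5 and 2 were higher, against 15.2%, 28% and 22.2% of all tested genes, and TUBB3 was lower with romidepsin (-0.75 ± 0.10). Whether the changes in receptor subunits go with the same cells as these markers was not tested.

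Most receptor subunits were barely transcribed in MP38. Of the 65 members, 30 stayed under the filter on low counts (about 0.345 CPM in at least 2 libraries): 25 of these had a few reads, at most 20 in 1 library and at most 57 over all 8, and 5 (GABRR1, GRIA2, CHRNB3, GLRA4 and P2RX1) had 0 reads in every library, which allows up to 3 in each. Among the 25 were GABRA4, GABRA6, GABRB1, GABRG1, GABRR2, GABRR3, GRIA3, GRIA4, GRIK1, GRIK5, GRIN2D, CHRNA1, CHRNA2, CHRNA9, CHRNB2, CHRNB4, CHRND, CHRNG, GLRA1, GLRA2, GLRA3, P2RX2, P2RX3 and P2RX5. The other 35 were tested, 12 for GABA, 11 for glutamate, 8 for acetylcholine, 1 for glycine and 3 for ATP. The heatmap of levels by library shows those reported by name. Of the 35, 23 cleared the filter's level in the control libraries and 12 did not. Those 12 passed wholly or partly through the drug groups, so a member among them that was high in a single group had to differ, and the counts over the 35 tested members are descriptions. Per kilobase of annotated exon in control, high mean levels were those of P2RX7 (11.5 CPM per kb), P2RX4 (6.61), P2RX6 (1.95), CHRNA5 (1.56) and CHRNB1 (1.05). With quisinostat, GABRQ (5.35 CPM per kb) stood near P2RX7 (9.33) and P2RX4 (5.31).

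**Figure D1:**
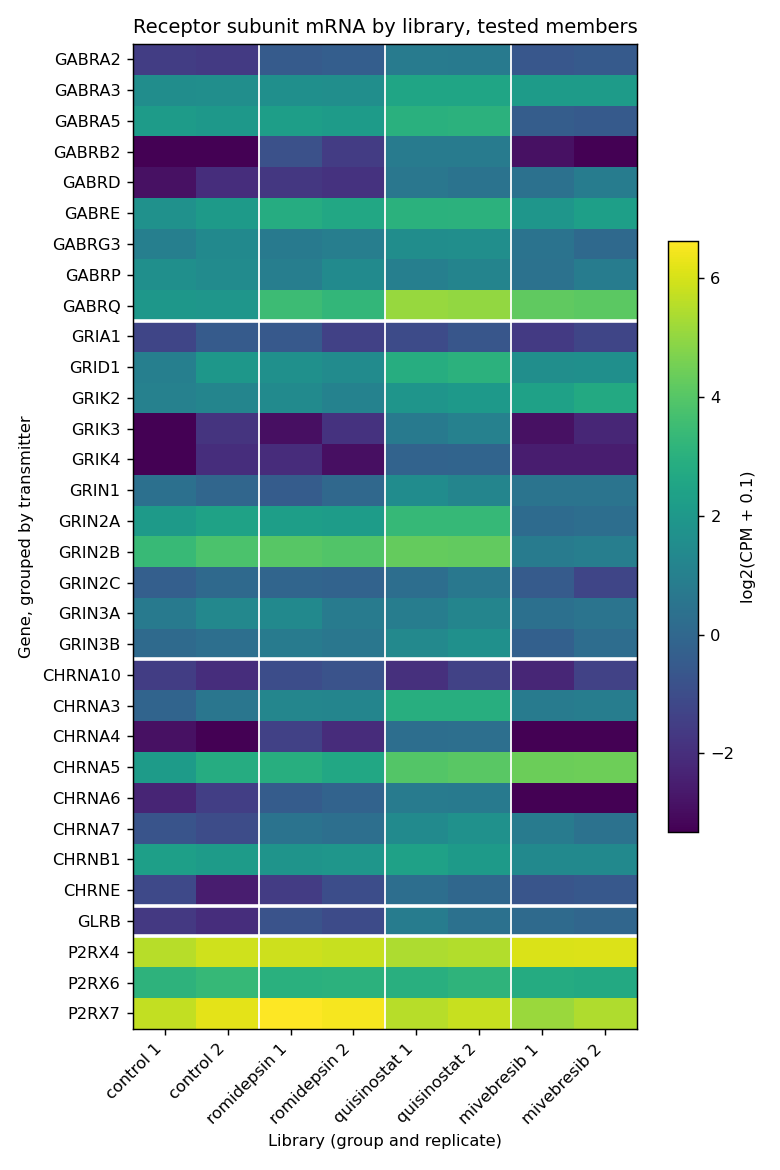
Level of 32 of the 35 tested receptor subunit genes (rows, grouped by transmitter) in the 8 libraries (columns, 2 per group), as log2(CPM + 0.1) on the colour scale. P2RX4 and P2RX7 are high in every library, GABRQ is brightest with quisinostat, and GABRA5, GRIN2A and GRIN2B are darkest with mivebresib.

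A member was called when edgeR's quasi-likelihood test gave an adjusted p below 0.05 (Benjamini-Hochberg over all 15085 tested genes) and a log2 fold change beyond 1.5 in either direction. With romidepsin, 3 members were called up (GABRB2, CHRNA4 and CHRNA6) and 0 down, where 3.77% of all tested genes were called up and 0.312% down. With quisinostat, 15 members were called up and 0 down, against 11.2% up and 1.03% down of all genes. With mivebresib, 5 were called up (GABRD, GABRQ, CHRNA5, CHRNA7 and GLRB) and 4 down (GABRA5, GRIN2A, GRIN2B and CHRNA6), against 3.96% and 4.36%. The count of members up with romidepsin was 1 without romidepsin replicate 1 and 5 without control replicate 1, and the counts with quisinostat ran from 14 to 16 and with mivebresib from 5 to 6 up and 4 down when 1 library was left out. All 3 members up with romidepsin and all 5 up with mivebresib were also among the 15 up with quisinostat, though the 3 comparisons share their control libraries. The same overlap was not counted over all tested genes, so it is given as a description and not as a trait of the members. Of the members called up, 3 of 3 with romidepsin, 10 of 15 with quisinostat and 2 of 5 with mivebresib were under the filter's level in control.

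By the adjusted p alone, 10 members were higher and 0 lower with romidepsin (15.2% and 15.8% of all genes), 24 higher and 1 lower with quisinostat (28% and 25.1%), and 10 higher and 9 lower with mivebresib (22.2% and 24.1%). Among the 23 members whose controls cleared the filter, 6, 14 and 7 were higher and 0, 1 and 8 lower in the same order of drugs. Under at least 1 alternative the adjusted p was no longer passed by CHRNA3, CHRNA4, CHRNA6, CHRNA7, GABRA2, GABRE and P2RX7 with romidepsin, by GRIK2, CHRNE and P2RX4 with quisinostat, and by GABRA2, GABRG3, GABRP, P2RX4, P2RX6 and P2RX7 with mivebresib. The median log2 fold change of the 35 tested members was 0.26, 1.28 and 0.012 for these drugs, and that of all tested genes was -0.012, -0.0036 and 0.0067. Without control replicate 2 the members' median was 0.66 with romidepsin and 0.39 with mivebresib, and without mivebresib replicate 2 it was -0.013 with mivebresib. The plot of fitted changes sets the 3 drugs side by side. Without scaling for composition, the median of all genes moved to 0.06 with romidepsin and 0.20 with quisinostat, and the calls of the 15 members with quisinostat were kept.

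**Figure D2:**
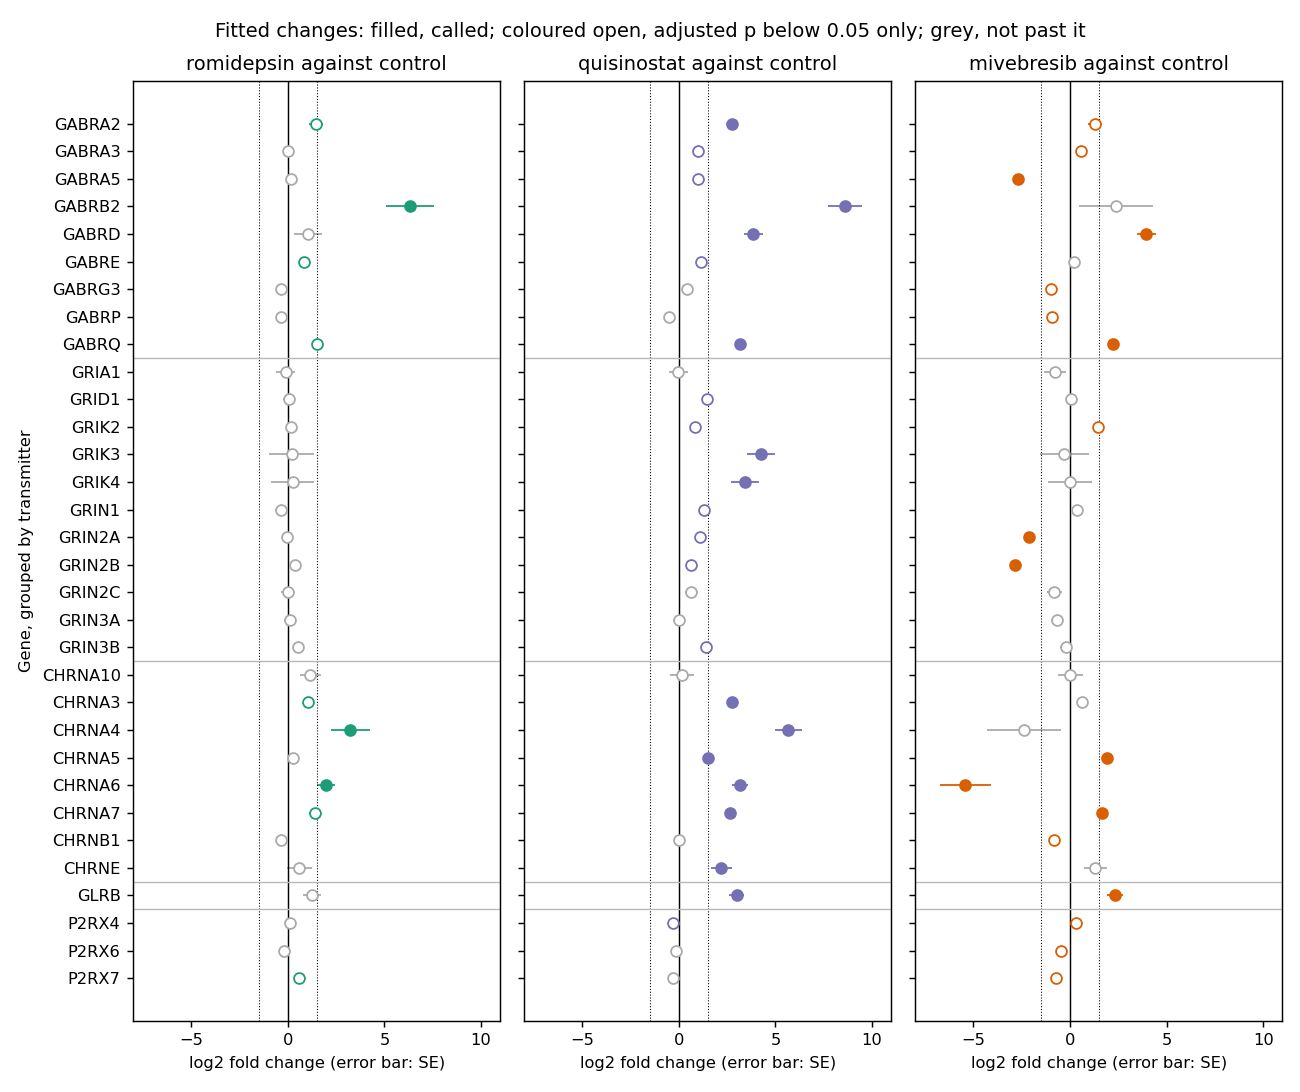
Log2 fold change (x axis, error bar: SE) of 32 of the 35 tested members against control with romidepsin, quisinostat and mivebresib, grouped by transmitter. Filled points were called (3, 13 and 9 of the members plotted), open coloured points passed the adjusted p alone, grey points did not, and dotted lines mark ±1.5; for genes with 0 reads in a group, such as GABRB2 in control or CHRNA4 and CHRNA6 with mivebresib, the position depends on the prior count of the fit.

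Among the GABA receptor subunits, GABRQ was higher with each drug. GABRQ, the θ subunit, was at 3.79 and 3.65 CPM in the control libraries, 11.3 and 9.64 with romidepsin, 33.8 and 32.3 with quisinostat and 18.3 and 17.2 with mivebresib. All 6 drug libraries were above the controls, and those with quisinostat were the highest. It rose with quisinostat (3.15 ± 0.11 on the log2 scale, SE, adjusted p = 8.36e-07) and mivebresib (2.25 ± 0.12, adjusted p = 4.17e-06), and its change with romidepsin (1.49 ± 0.12, adjusted p = 1.24e-04) lay just under the fold threshold. With DESeq2, with DESeq2's size factors, with library size alone, with the 4 libraries of the comparison alone, and without control replicate 1, romidepsin replicate 2 or either quisinostat library, GABRQ was called up with romidepsin too.

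**Figure D3:**
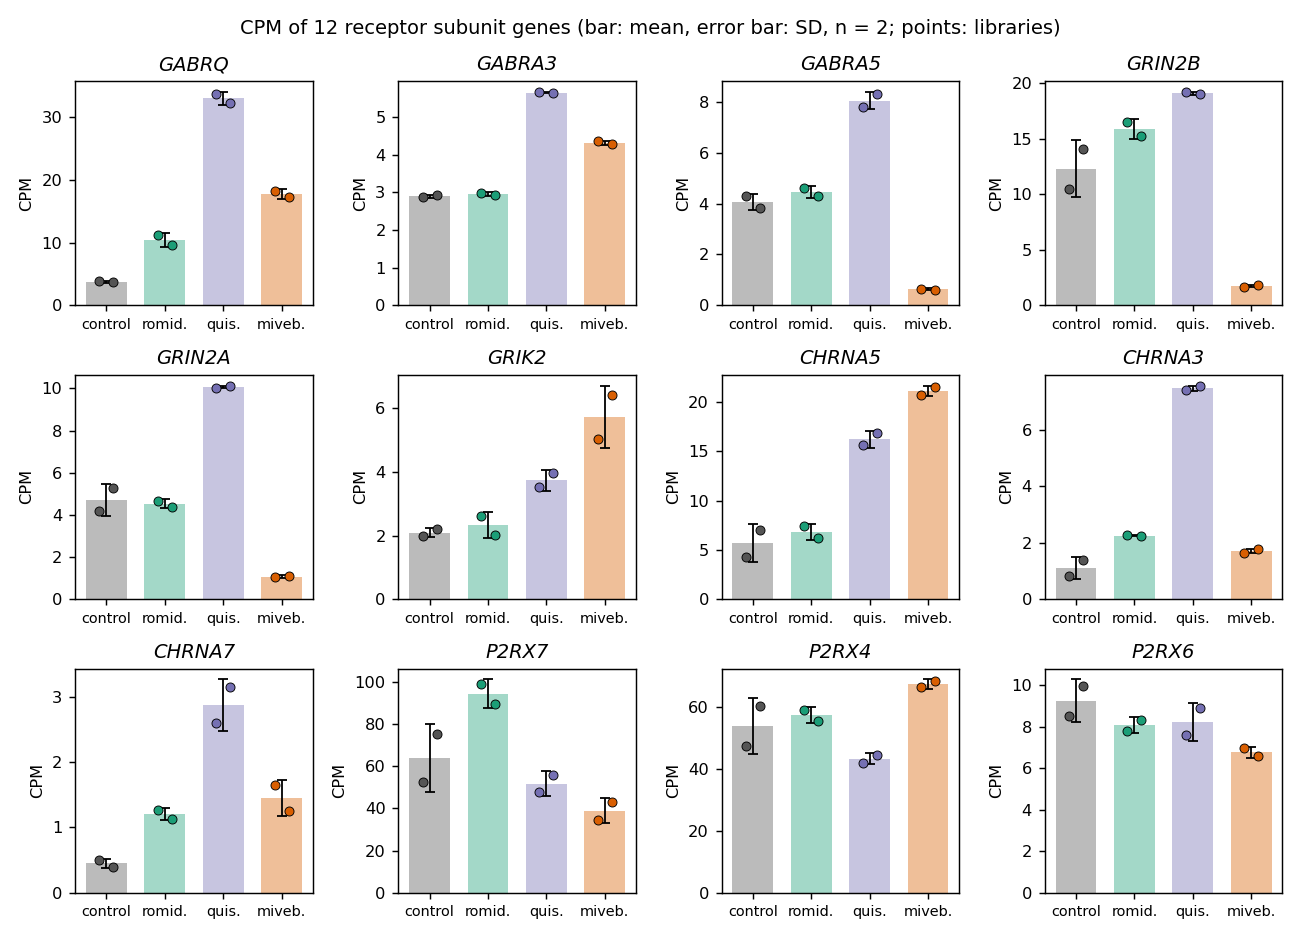
CPM (y axis, from 0) of 12 receptor subunit genes in the 4 groups; bars are means, error bars SD of 2 libraries and points the libraries. GABRQ and GABRA3 are highest with quisinostat, GABRA5, GRIN2A and GRIN2B are lowest with mivebresib, CHRNA5 and GRIK2 are highest with mivebresib, and the 2 control points of P2RX7 lie at 52.4 and 75.0 CPM.

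Of the α subunits, which form the GABA site together with β, GABRA5 was called down with mivebresib and GABRA2 up with quisinostat. GABRA5 was at 4.29 and 3.83 CPM in the control libraries, 4.63 and 4.30 with romidepsin, 7.82 and 8.31 with quisinostat and 0.658 and 0.611 with mivebresib. All libraries with mivebresib were below and all with quisinostat above the control, whereas those with romidepsin lay just above it. With mivebresib GABRA5 fell by 2.67 ± 0.19 (log2, SE, adjusted p = 1.61e-05) and was higher with quisinostat by 0.99 ± 0.13 (adjusted p = 3.85e-04). GABRA3 was at 2.87 and 2.92 CPM in the control libraries, 2.99 and 2.93 with romidepsin, 5.66 and 5.63 with quisinostat and 4.35 and 4.28 with mivebresib, higher with quisinostat (0.96 ± 0.13, adjusted p = 4.47e-04) and mivebresib (0.58 ± 0.14, adjusted p = 0.00913) under the fold threshold. GABRA2 was at 0.248 and 0.219 CPM in the control libraries, 0.618 and 0.689 with romidepsin, 1.68 and 1.56 with quisinostat and 0.548 and 0.611 with mivebresib. All drug libraries of GABRA2 were above the control, and it was called up with quisinostat (2.77 ± 0.31, adjusted p = 1.32e-04). In control GABRA2 was under the filter's level, so it passed through the drug groups.

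Of the other GABA subunits, GABRB2, the β2 subunit, had 0 and 0 reads in the control libraries, 13 and 7 with romidepsin, 52 and 53 with quisinostat and 1 and 0 with mivebresib. It was read in both HDAC inhibitor groups and hardly elsewhere: at least 3.19-fold higher than the floor of 3 reads per control library with romidepsin (adjusted p = 0.0078) and at least 15.4-fold with quisinostat (adjusted p = 1.60e-04). GABRB2 passed the filter only through the drug groups, so these calls and folds are descriptions. GABRD, the δ subunit of receptors outside synapses, had 1 and 4 reads in the control libraries, 6 and 5 with romidepsin, 45 and 40 with quisinostat and 33 and 48 with mivebresib. Libraries with quisinostat and mivebresib lay far above the other 4, and GABRD was called up with both (log2 fold change 3.84 ± 0.50 and 3.96 ± 0.49, adjusted p = 2.95e-04 and 3.07e-04). GABRD, too, was under the filter's level in control and passed through the drug groups. Its change was 3.15 with quisinostat and 3.31 with mivebresib without control replicate 1, and 5.09 and 5.21 without control replicate 2. GABRE, the ε subunit, was at 3.22 and 4.16 CPM in the control libraries, 7.07 and 6.20 with romidepsin, 8.16 and 8.21 with quisinostat and 3.66 and 4.78 with mivebresib, higher with romidepsin (adjusted p = 0.00879) and quisinostat (adjusted p = 7.83e-04) under the fold threshold. GABRG3, a γ subunit, was at 1.88 and 2.52 CPM in the control libraries, 1.58 and 1.82 with romidepsin, 2.88 and 2.96 with quisinostat and 1.28 and 0.971 with mivebresib, and GABRP, the π subunit, was at 2.97 and 2.67 CPM in the control libraries, 1.82 and 2.62 with romidepsin, 1.87 and 2.13 with quisinostat and 1.24 and 1.73 with mivebresib. Both were lower with mivebresib by the adjusted p alone (-0.96 ± 0.24 and -0.92 ± 0.25, adjusted p = 0.0119 and 0.0165).

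Many GABA subunit genes lie in clusters. GABRA5 (chr15:26866363-26949207, plus strand) and GABRG3 (chr15:26971282-27541991, plus strand) lie near each other on chromosome 15. With mivebresib GABRA5 fell and GABRG3 was lower, and with quisinostat GABRA5 was higher. On the X chromosome, GABRE (chrX:151953124-151974680, minus), GABRA3 (chrX:152166234-152451358, minus) and GABRQ (chrX:152638183-152657534, plus) were all higher with quisinostat, and GABRA3 and GABRQ with mivebresib. Whether neighbours differ from each other in their response was not tested.

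By CPM, which is not scaled for gene length, the 2 highest glutamate receptor members in control were NMDA subunits, and both fell with mivebresib. Per kilobase of annotated exon in control, GRID1 (0.476 CPM per kb) stood above GRIN2B (0.397), GRIN3B (0.324) and GRIN2A (0.283). GRIN2B, a glutamate-binding NMDA subunit, was at 10.5 and 14.1 CPM in the control libraries, 16.5 and 15.2 with romidepsin, 19.2 and 19.0 with quisinostat and 1.68 and 1.80 with mivebresib. Both mivebresib libraries were far below all others, and both quisinostat libraries above the controls. With mivebresib GRIN2B fell by 2.82 ± 0.18 (log2, SE, adjusted p = 9.67e-06), was higher with quisinostat by 0.63 ± 0.14 (adjusted p = 0.00465) and did not pass the test with romidepsin (0.37 ± 0.14, adjusted p = 0.0745). GRIN2A, its paralog, was at 4.18 and 5.26 CPM in the control libraries, 4.67 and 4.37 with romidepsin, 10.0 and 10.1 with quisinostat and 1.02 and 1.11 with mivebresib. It fell by 2.14 ± 0.18 with mivebresib (adjusted p = 4.52e-05) and was higher by 1.09 ± 0.14 with quisinostat (adjusted p = 3.04e-04). GRIN1, the glycine-binding subunit that every NMDA receptor contains, was at 1.17 and 0.876 CPM in the control libraries, 0.652 and 0.930 with romidepsin, 2.75 and 2.23 with quisinostat and 1.32 and 1.33 with mivebresib. Its quisinostat libraries stood above all others, higher than control by 1.28 ± 0.26 (adjusted p = 0.00334), and with mivebresib it did not pass the test (adjusted p = 0.314).

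The GRIN3 subunits bind glycine as well. GRIN3B was at 0.992 and 1.13 CPM in the control libraries, 1.65 and 1.45 with romidepsin, 2.50 and 3.09 with quisinostat and 0.731 and 1.08 with mivebresib, higher with quisinostat by 1.39 ± 0.25 (adjusted p = 0.00174), and shares 85 exon bases with TMEM259 on the opposite strand. GRIN3A was at 1.59 and 2.37 CPM in the control libraries, 2.57 and 1.65 with romidepsin, 1.74 and 2.20 with quisinostat and 1.17 and 1.33 with mivebresib and passed the test with none of the drugs (adjusted p = 0.829, 0.982 and 0.115). GRIN2C had its lowest level, 0.324 CPM, with mivebresib and passed with none either.

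Of the kainate receptor subunits, GRIK2 was at 1.98 and 2.19 CPM in the control libraries, 2.61 and 2.03 with romidepsin, 3.51 and 3.98 with quisinostat and 5.05 and 6.44 with mivebresib. Its mivebresib libraries were the highest, and the change of 1.46 ± 0.20 (adjusted p = 5.01e-04) lay just under the fold threshold, while with quisinostat it was higher by 0.84 ± 0.20 (adjusted p = 0.00808). GRIK3 had 0 and 5 reads in the control libraries, 1 and 5 with romidepsin, 50 and 62 with quisinostat and 1 and 3 with mivebresib, and GRIK4 had 0 and 4 reads in the control libraries, 4 and 1 with romidepsin, 25 and 26 with quisinostat and 2 and 2 with mivebresib. Both were called up with quisinostat, where their mean CPM was 19.5 times (95% counting interval 8.23 to 62.1) and 11.1 times (95% counting interval 4.14 to 42.9) the control's (adjusted p = 0.00123 and 0.00441). Both reached the filter's level only with quisinostat, the group in which they were called, so these calls and folds are descriptions. The promoter of GRIK3 is among those printed above. The log2 fold change of GRIK3 was 3.24 without control replicate 1 and 8.70 without control replicate 2, and that of GRIK4 was 2.42 and 7.57, the higher values resting on a control library with 0 reads. GRID1, a δ subunit with roles in synapse adhesion, was at 1.84 and 3.80 CPM in the control libraries, 3.09 and 2.72 with romidepsin, 7.18 and 8.21 with quisinostat and 2.92 and 3.02 with mivebresib. Its quisinostat libraries were above both controls (1.45 ± 0.27, adjusted p = 0.00215) that lay far apart from each other, and the change was 1.00 without control replicate 1 and 2.06 without control replicate 2. The AMPA receptor genes were nearly silent: GRIA1 stayed between 0.219 and 0.621 CPM, GRIA3 and GRIA4 were under the filter and GRIA2, which makes AMPA receptors impermeable to calcium, had 0 reads.

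Of the 8 nicotinic acetylcholine receptor subunits tested, 6 were called up with quisinostat, where 11.2% of all genes were: CHRNA3, CHRNA4, CHRNA5, CHRNA6, CHRNA7 and CHRNE. Of these, CHRNA4, CHRNA6 and CHRNE did not clear the filter's level in control. They passed it wholly or partly through the drug groups, so the 6 of 8 is a description. CHRNA5, an accessory α subunit, was at 4.29 and 7.05 CPM in the control libraries, 7.38 and 6.20 with romidepsin, 15.6 and 16.8 with quisinostat and 20.8 and 21.5 with mivebresib. Libraries with quisinostat and mivebresib were all above the other 4, and CHRNA5 rose with quisinostat by 1.52 ± 0.20 (adjusted p = 3.03e-04) and with mivebresib by 1.90 ± 0.20 (adjusted p = 1.11e-04). Without control replicate 1 the value with quisinostat was 1.19, under the fold threshold, and without quisinostat replicate 2 it was 1.43. With romidepsin it ran from -0.031 to 0.66 over the fits that left out 1 library. CHRNA3, which forms ganglionic receptors, was at 0.815 and 1.39 CPM in the control libraries, 2.27 and 2.24 with romidepsin, 7.41 and 7.54 with quisinostat and 1.65 and 1.76 with mivebresib. It rose with quisinostat (2.76 ± 0.22, adjusted p = 2.10e-05) and was higher with romidepsin by the adjusted p alone (1.03 ± 0.24, adjusted p = 0.0135). CHRNA5 (chr15:78565520-78595269, plus strand) and CHRNA3 (chr15:78593052-78621295, minus strand) are neighbours that share 198 exon bases on opposite strands, and CHRNB4, the third gene of the cluster (chr15:78624119-78727754, minus strand), had 25 reads over all libraries. A larger part of CHRNA5, 832 exon bases (22.96%), is shared with AC027228.2, also on the opposite strand.

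CHRNA7, which forms receptors of a single subunit type, was at 0.496 and 0.402 CPM in the control libraries, 1.27 and 1.14 with romidepsin, 2.59 and 3.15 with quisinostat and 1.65 and 1.26 with mivebresib. All 6 drug libraries were above the controls, and it was called up with quisinostat (2.67 ± 0.27, adjusted p = 8.64e-05) and mivebresib (1.68 ± 0.30, adjusted p = 0.002). Part of CHRNA7 is duplicated in CHRFAM7A, with 0 and 3 reads in control and 18 and 38 with quisinostat, so the split of reads between the 2 is uncertain. Without mivebresib replicate 1 the change of CHRNA7 with mivebresib was 1.48, just under the fold threshold. CHRNA6, a subunit of dopaminergic neurons, had 3 and 7 reads in the control libraries, 19 and 23 with romidepsin, 53 and 51 with quisinostat and 0 and 0 with mivebresib. It was called up with both HDAC inhibitors (1.98 ± 0.46 and 3.17 ± 0.41, adjusted p = 0.0161 and 5.14e-04) and down with mivebresib (adjusted p = 0.012), where it was at least 1.66-fold lower given the floor of 3 reads per library. With quisinostat its change was 2.65 without control replicate 1 and 3.90 without control replicate 2.

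CHRNA4, the α subunit of the main brain receptor, had 1 and 0 reads in the control libraries, 8 and 4 with romidepsin, 35 and 36 with quisinostat and 0 and 0 with mivebresib. With romidepsin the CPM was 11.6 times (95% counting interval 1.70 to 490.5) the control's (adjusted p = 0.0437) and with quisinostat 63.6 times (95% counting interval 10.9 to 2510) (adjusted p = 4.44e-04). The log2 fold change with quisinostat was 4.83 without control replicate 2 and 8.02 without control replicate 1, which left the control library with 0 reads. The romidepsin calls of CHRNA4 and CHRNA6 changed with the processing. CHRNA4 was lost with DESeq2, with no filter, with the 4 libraries of the comparison alone, and without control replicate 2 (log2 fold change 2.41) or any 1 of the romidepsin and quisinostat libraries, when edgeR's adjusted p was 0.0589 to 0.2. CHRNA6 was lost with those 4 libraries alone and without control replicate 1 or either romidepsin library, when edgeR's adjusted p was 0.0518 to 0.0753. CHRNB1, the β subunit of muscle receptors, was at 4.78 and 4.27 CPM in the control libraries, 3.50 and 3.68 with romidepsin, 5.03 and 4.17 with quisinostat and 2.56 and 2.55 with mivebresib, lower with mivebresib by the adjusted p alone (-0.82 ± 0.16, adjusted p = 0.00368). It shares 630 exon bases (14.55%) with AC113189.4 on the same strand. CHRNE, the adult muscle subunit, had 10 and 2 reads in the control libraries, 7 and 12 with romidepsin, 35 and 28 with quisinostat and 14 and 16 with mivebresib and was called up with quisinostat (2.19 ± 0.53, adjusted p = 0.00827), but 40.9% of its exon bases are also those of C17orf107 on the opposite strand and 10.1% those of MINK1. The change was 3.68 without control replicate 1. The call was lost without control replicate 2, when the change was 1.49, and without quisinostat replicate 1, when the adjusted p was 0.0523. CHRNB2, the usual partner of CHRNA4, was under the filter with 47 reads in all, as were the muscle subunits CHRNA1, CHRND and CHRNG with 14, 22 and 18. CHRNA10, which shares 133 exon bases with NUP98 on the same strand, stayed between 0.110 and 0.482 CPM and passed the test with none of the drugs.

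GLRB, the β subunit that anchors glycine receptors to gephyrin, was the 1 glycine subunit tested. It had 6 and 4 reads in the control libraries, 14 and 11 with romidepsin, 54 and 38 with quisinostat and 27 and 24 with mivebresib. All 6 drug libraries were above the controls, and GLRB was called up with quisinostat (2.99 ± 0.39, adjusted p = 2.94e-04) and mivebresib (2.34 ± 0.41, adjusted p = 0.00202) but not with romidepsin (adjusted p = 0.0753). In control GLRB was under the filter's level, so it passed through the drug groups. The α subunits GLRA1, GLRA2, GLRA3 and GLRA4 were under the filter, with 0 to 26 reads in all.

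The ATP receptor subunits were the most abundant and were called with none of the drugs. P2RX7, the receptor for high extracellular ATP, was at 52.4 and 75.0 CPM in the control libraries, 99.0 and 89.4 with romidepsin, 47.5 and 55.9 with quisinostat and 34.7 and 43.0 with mivebresib. The control libraries lay well apart, and both romidepsin libraries were above and both mivebresib libraries below them. By the adjusted p alone P2RX7 was higher with romidepsin (0.56 ± 0.17, adjusted p = 0.0392) and lower with mivebresib (-0.71 ± 0.18, adjusted p = 0.0107), and with quisinostat it did not pass (-0.30 ± 0.17, adjusted p = 0.179). Neither the romidepsin nor the mivebresib result of P2RX7 held under every alternative. Its change with romidepsin was 0.35 without control replicate 1 and 0.84 without control replicate 2. P2RX4 was at 47.4 and 60.4 CPM in the control libraries, 59.2 and 55.6 with romidepsin, 42.1 and 44.5 with quisinostat and 66.4 and 68.6 with mivebresib. Its differences were small, lower with quisinostat (-0.32 ± 0.11, adjusted p = 0.0447) and higher with mivebresib (0.32 ± 0.11, adjusted p = 0.0452), and neither held under every alternative. P2RX6, a subunit that traffics poorly by itself, was at 8.50 and 9.97 CPM in the control libraries, 7.79 and 8.33 with romidepsin, 7.59 and 8.88 with quisinostat and 6.95 and 6.58 with mivebresib and was lower with mivebresib (-0.45 ± 0.13, adjusted p = 0.0241), with 113 exon bases shared with SLC7A4. The mivebresib result of P2RX6 did not hold under every alternative either. P2RX5 overlaps the readthrough gene P2RX5-TAX1BP3 on the same strand by 1743 exon bases and was under the filter.

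Levels were also summed over the subunits of a transmitter. The glutamate subunits summed to 27.9 ± 6.07, 32.0 ± 2.39 and 53.2 ± 2.49 CPM (SD, n = 2) in control and the HDAC inhibitor groups and to 15.3 and 17.4 CPM in the mivebresib libraries, led by GRIN2B except with mivebresib, where GRIK2 led with 35.0%. The acetylcholine subunits summed to 12.7 ± 1.90, 16.2 ± 0.649, 36.0 ± 0.935 and 28.1 ± 0.691 CPM, and CHRNA5 made up 75.2% of the sum with mivebresib against 44.4% in control. The ATP subunits summed to 127 ± 26.3, 159.8 ± 9.12, 104 ± 8.60 and 113 ± 7.17 CPM, a range in which the control libraries alone spanned 108 to 146. These sums are given as descriptions and were not tested.

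**Figure D4:**
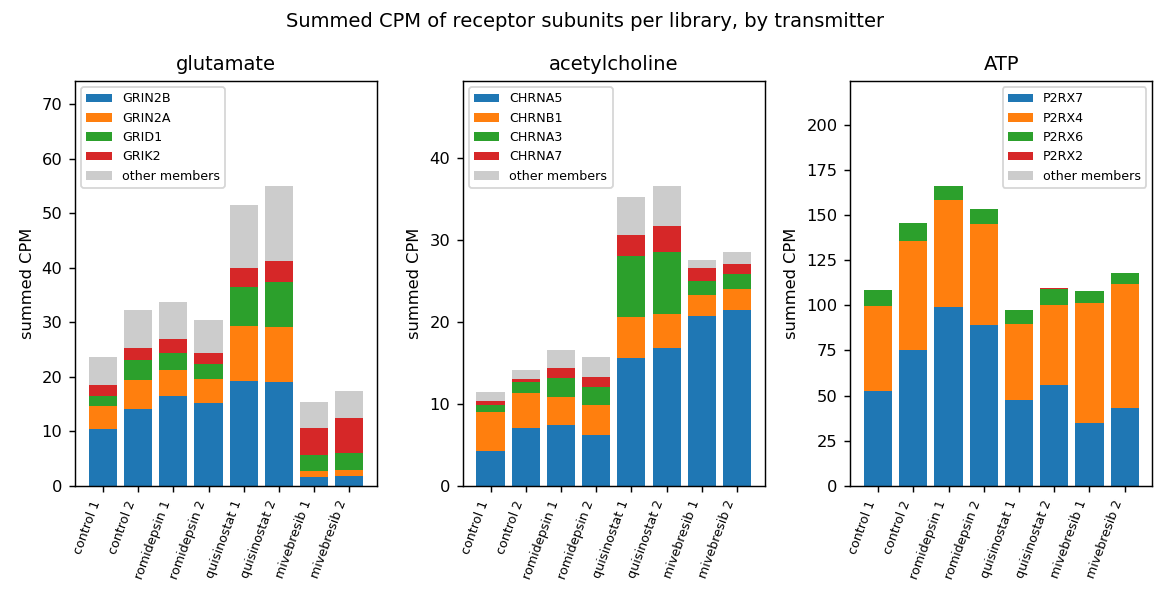
Summed CPM (y axis, from 0) of the subunits for glutamate, acetylcholine and ATP in each of the 8 libraries, stacked by the 4 most abundant members of each and the rest in grey. The glutamate stack is shortest with mivebresib, at 15.3 and 17.4 CPM, and the ATP stack consists of P2RX7, P2RX4 and P2RX6.

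Romidepsin and quisinostat were given at the same concentration and time, so their libraries were also compared directly. In the study's viability tests romidepsin acted on MP38 at a lower concentration than quisinostat. The same concentration thus need not be the same effective dose, and drug and effective dose cannot be told apart here. With quisinostat 12 members were higher than with romidepsin by the same thresholds and 0 lower, against 5.41% and 0.179% of all genes. Among the 12 were GABRB2, GABRD, GABRQ, GRIK3, GRIK4, GRIN1, CHRNA3, CHRNA4, CHRNE and GLRB. The difference was 1.66 ± 0.10 (log2, SE) for GABRQ (adjusted p = 4.51e-05). P2RX7 was lower with quisinostat than with romidepsin by the adjusted p alone (-0.86 ± 0.17, adjusted p = 0.00595), and GRIN2B did not pass the test (0.27 ± 0.13, adjusted p = 0.161). CHRNE was lost from these 12 with DESeq2 and in every fit that left out a drug-treated library. Leaving out 1 library at a time gave 8 to 12 such members, the fewest without quisinostat replicate 1. Mivebresib was given at another dose, so its differences from the other drugs mix drug and dose. It had 2 members higher (GABRD and CHRNA5) and 6 lower than romidepsin (2.52% and 6.7% of all genes), and 0 higher and 13 lower than quisinostat (1.73% and 12.6%). By the adjusted p alone, 23 members were higher and 2 lower with quisinostat than with romidepsin (21% and 14.6% of all genes), 6 higher and 11 lower with mivebresib than with romidepsin (23.7% and 25.2%), and 2 higher and 23 lower with mivebresib than with quisinostat (26.2% and 31.5%). Against quisinostat the differences were -3.66 ± 0.18 for GABRA5 (adjusted p = 1.71e-06) and -3.45 ± 0.17 for GRIN2B (adjusted p = 1.96e-06).

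Genes that work with these receptors were read from 4 lists, against shares of all tested genes called up of 3.77%, 11.2% and 3.96% for romidepsin, quisinostat and mivebresib, and called down of 4.36% for mivebresib. Of 34 auxiliary and anchoring proteins, 21 were tested, and 4 were called up with romidepsin, 7 with quisinostat and 0 with mivebresib, where 3 were called down. SHISA7, an auxiliary protein of AMPA and GABA receptors, was at 0.360 ± 0.0587 CPM in control, 3.85 ± 0.333 with romidepsin, 13.6 ± 0.415 with quisinostat and 0.253 ± 0.0483 with mivebresib (mean ± SD, n = 2), and its log2 fold change was 3.40 ± 0.22 with romidepsin and 5.22 ± 0.19 with quisinostat (adjusted p = 6.08e-05 and 8.42e-07). CACNG7, an AMPA receptor auxiliary subunit, had 0 reads in control and with mivebresib, and was at least 10.4-fold higher than the control floor with romidepsin and at least 112-fold with quisinostat. LHFPL4, which brings GABA receptors to synapses, had 0 reads in the same 4 libraries and was at least 4.94-fold and 18.5-fold higher. SHISA9 (log2 fold change 1.62 ± 0.19) was the fourth called with romidepsin and CACNG4 (3.18 ± 0.13) among those called with quisinostat. Without romidepsin replicate 1 the 4 lists together had 5 genes up with romidepsin in place of 8. In contrast, DLG4, the scaffold PSD-95, LYPD1, a relative of the nicotinic modulator LYNX1, and GRIP2 were called down with mivebresib (log2 fold change -1.70 ± 0.20, -2.70 ± 0.14 and -2.95 ± 0.78), and the 4 lists had 2 genes down without mivebresib replicate 1 in place of 5.

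Of 23 G-protein-coupled receptors of the same transmitters, 10 were tested. CHRM4, a muscarinic receptor, was called up with romidepsin (1.56 ± 0.19) and quisinostat (3.04 ± 0.18), and GABBR2, a GABA B receptor subunit, down with mivebresib (-2.01 ± 0.15), from 9.41 ± 0.687 to 2.34 ± 0.305 CPM. Of 18 enzymes that make or break down the transmitters, 16 were tested, with 3 called up with romidepsin, 6 with quisinostat and 3 with mivebresib, where 1 was called down. CHAT, which makes acetylcholine, was at 0.342 ± 0.0328 CPM in control, 1.20 ± 0.440 with romidepsin, 5.90 ± 0.200 with quisinostat and 0.0360 ± 0.0508 with mivebresib, up with both HDAC inhibitors (1.80 ± 0.41 and 4.09 ± 0.35, adjusted p = 0.0122 and 3.12e-05) and down with mivebresib (adjusted p = 0.0163). ABAT, which breaks down GABA, was called up with quisinostat (3.86 ± 0.15) and mivebresib (1.65 ± 0.16), as were GLDC of the glycine cleavage system (2.31 ± 0.19 and 1.77 ± 0.20) and ENTPD3, an ectoenzyme that hydrolyses ATP (5.05 ± 0.37 and 1.63 ± 0.53). ENTPD2, of the same family, was called up with romidepsin (1.90 ± 0.46) and quisinostat (3.99 ± 0.37), and BCHE, which hydrolyses acetylcholine, with romidepsin (1.57 ± 0.19) and quisinostat. Of 10 other ligand-gated ion channels, 2 were tested and ASIC1, an acid-sensing channel, was called up with quisinostat (2.16 ± 0.16, adjusted p = 1.62e-05).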

How the data were processed

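Bulk RNA of MP38 cells was sequenced in 8 libraries (4 groups of 2, from the sample labels). The authors deposited counts per gene symbol for 35238 genes, made with BioJupies without normalization. The build was hg38 per the submitters' processing notes, and the aligner and annotation are not given in the sources used here. Libraries were strand-specific, and the strand setting of the counter is not given, so overlapping genes are uncertain. Deposited log-scale and quantile-normalized versions of the same table were not used.

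Counts were fitted in 1 model of all 8 libraries with edgeR 4.0.16 (R 4.3.3): filterByExpr by group (15085 genes kept), TMM scaling, quasi-likelihood test, Benjamini-Hochberg adjustment over all tested genes, and a biological coefficient of variation of 0.0938. Calls needed both an adjusted p under 0.05 and a change beyond 1.5 on the log2 scale. SE is the log2 fold change divided by the square root of F, and the script was tested on simulated data. CPM values use TMM-scaled library sizes. Counting intervals and floors (3 reads per library) cover counting error only. Total counts ran from 28483235 to 29359024 per library.

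Alternatives were DESeq2 1.42.0, limma-voom (limma 3.58.1), other scalings, no filter, 4 libraries alone, a replicate block and leaving out each library. The rule for members used symbols alone, but the rule and the gene lists were chosen with earlier results of these data known. Values in every library are given for members called with at least 1 drug or averaging at least 1 CPM, and of each further list at most 4 called genes a drug. Some members are counted with the others but are not reported by name here, and the figures leave them out. Exons, coordinates and exonic length came from GENCODE 29 (GRCh38), and 65 of 65 symbols matched. Exonic length is the union of all annotated exons, so a gene with long rarely used exons has its level per kb understated.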

Additional observations from a re-analysis of the deposited data

How the results depend on the processing

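By the adjusted p alone the members numbered 10 higher with romidepsin, 24 higher and 1 lower with quisinostat, and 10 higher and 9 lower with mivebresib. The 4 associated lists, with 21, 10, 16 and 2 genes tested, had 15 higher and 4 lower with romidepsin, 28 and 6 with quisinostat and 12 and 10 with mivebresib. Of all tested genes, 15.2% were higher and 15.8% lower with romidepsin, 28% and 25.1% with quisinostat and 22.2% and 24.1% with mivebresib. The direct comparisons had 23 members higher and 2 lower for quisinostat against romidepsin (21% and 14.6% of all genes), 6 and 11 for mivebresib against romidepsin (23.7% and 25.2%) and 2 and 23 for mivebresib against quisinostat (26.2% and 31.5%). With library size alone 5 members were called up with romidepsin, and the members' median with quisinostat was 1.48. With no filter on low counts the members' median with mivebresib was -0.00069 and 1 listed gene was called down with quisinostat. Over the 8 fits that left out 1 library each, the members up with romidepsin numbered 1 to 5, the members' median ran from 0.19 to 0.66 with romidepsin, 1.05 to 1.34 with quisinostat and -0.013 to 0.39 with mivebresib, the listed genes up with romidepsin numbered 5 to 8 and those down with mivebresib 2 to 6, and the log2 fold change of CHRNA5 with romidepsin ran from -0.031 to 0.66. In these fits the lone library of a group was assumed to vary like the other groups. Why these values moved was not tested. Without TMM factors the glutamate subunits summed to 58.1 CPM with quisinostat, the acetylcholine subunits to 39.3 with quisinostat and 27.1 with mivebresib, the glycine subunits to 0.376 in control and the ATP subunits to 113 with quisinostat. With the replicate number as a block, 2 members were called up with romidepsin (CHRNA4 was lost), 15 with quisinostat and 9 in either direction with mivebresib. In the direct comparison 11 members were higher with quisinostat than with romidepsin. Same-numbered libraries did not deviate together (correlation of deviations from -0.162 to 0.158 between groups), so the libraries share only a number. Depth limits what can be said of the 30 members under the filter.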
